A study of Caenorhabditis elegans with 2 samples.

Results

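The genes of RNA interference (RNAi) and of the Argonaute pathways of Caenorhabditis elegans were examined as possible binding targets of MADF-10, whose MADF domain is a relative of the Myb type of DNA-binding domain. The set was chosen by name and holds 42 genes of the 19985 protein-coding genes annotated on genome build ce11, and all 42 were found in the annotation. Binding was measured by chromatin immunoprecipitation and sequencing (ChIP-seq) in whole young adult hermaphrodites, collected 68 h after synchronised L1 larvae, starved after bleaching, were put on food. All animals were of strain OP508, with the genotype unc-119(tm4063) III; wgIs508, in which the integrated transgene wgIs508 supplies MADF-10 joined to GFP and FLAG at its C terminus. The samples form 1 group of 2 biological replicates from this 1 strain, with no second condition, so no difference between conditions could be measured. The sample description names an antibody against GFP, while the antibody field of the same labels names madf-10. In whole animals, strong binding in few cells and weak binding in many cannot be told apart.

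RNA interference silences genes through small RNAs held by Argonaute proteins. In worms, Dicer cuts double-stranded RNA into primary small interfering RNAs (siRNAs), and RNA-dependent RNA polymerases then copy the targeted transcript into abundant secondary siRNAs, much of this in Mutator foci beside germline nuclei. Secondary siRNAs act through worm-specific Argonautes, in the cytoplasm or, with the NRDE proteins, on nascent transcripts in the nucleus. MicroRNAs and Piwi-interacting RNAs (piRNAs) have Argonautes of their own.

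The authors' lists hold regions ranked by a signal value, and the reproducible list is the 1869 strongest regions of the pooled list, which ends at a signal of 92.3. A gene was counted when the summit of a region lay between 1000 bp upstream and 200 bp downstream of one of its annotated transcript starts. A reproducible peak was present at 8 of the 42 RNAi genes (19.0%), against 6.38% of all protein-coding genes. The 8 were ekl-4, nrde-2, ego-1, mut-15, eri-5, rde-4, nrde-4 and alg-1, in the order of their signal. They come from 6 of the 7 roles into which the set was divided, and no role had more than 2. The set was chosen with results of these data known, so the share is given beside that of all genes as a description, with no test.

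The bases at the summits of 5 of these 8 peaks, those of nrde-2, mut-15, eri-5, rde-4 and nrde-4, are shown because each marks the place of strongest signal within the reproducible peak of an RNAi gene. Those of ekl-4, ego-1 and alg-1 are not printed here. Each stretch of 60 bases is from build ce11 (RefSeq sequence of WBcel235), reads 5′ to 3′ on the strand of the named gene, and has the base of the pooled summit in capitals. They lie at chrII:10248533-10248592 on the minus strand for nrde-2, chrV:15002271-15002330 on the plus strand for mut-15, chrIV:2390403-2390462 on the plus strand for eri-5, chrIII:10218766-10218825 on the minus strand for rde-4 and chrIV:7654538-7654597 on the minus strand for nrde-4.
nrde-2: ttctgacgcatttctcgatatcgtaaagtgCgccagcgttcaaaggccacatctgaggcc
mut-15: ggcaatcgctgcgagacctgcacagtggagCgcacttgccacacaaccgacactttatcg
eri-5: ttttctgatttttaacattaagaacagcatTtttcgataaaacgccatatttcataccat
rde-4: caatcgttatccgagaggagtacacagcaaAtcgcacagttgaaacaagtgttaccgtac
nrde-4: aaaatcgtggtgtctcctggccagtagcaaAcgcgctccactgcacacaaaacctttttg
The stretch of eri-5 is visibly rich in A and T, and that of mut-15 is the richest in G and C of the 5 in the wider window measured further on.

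The signal is the authors' value for each region and is comparable only within a list, so levels are also given as a multiple of the list's median, whose value was 10.8 for replicate 1, 17.9 for replicate 2 and 23.3 for the pool. The lists hold 30000 regions (pooled), 25924 (replicate 1) and 30000 (replicate 2), many of them weak, and how deeply the libraries were sequenced is unknown. As a check of the tagged factor, the gene madf-10 itself had a region at rank 3 in the pooled list and in both replicates, with a pooled signal of 13878, or 596 times the list's median. The animals carry a tagged copy of that gene in the transgene, and signal from the native and the transgenic copy cannot be told apart.

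**Figure D1:**
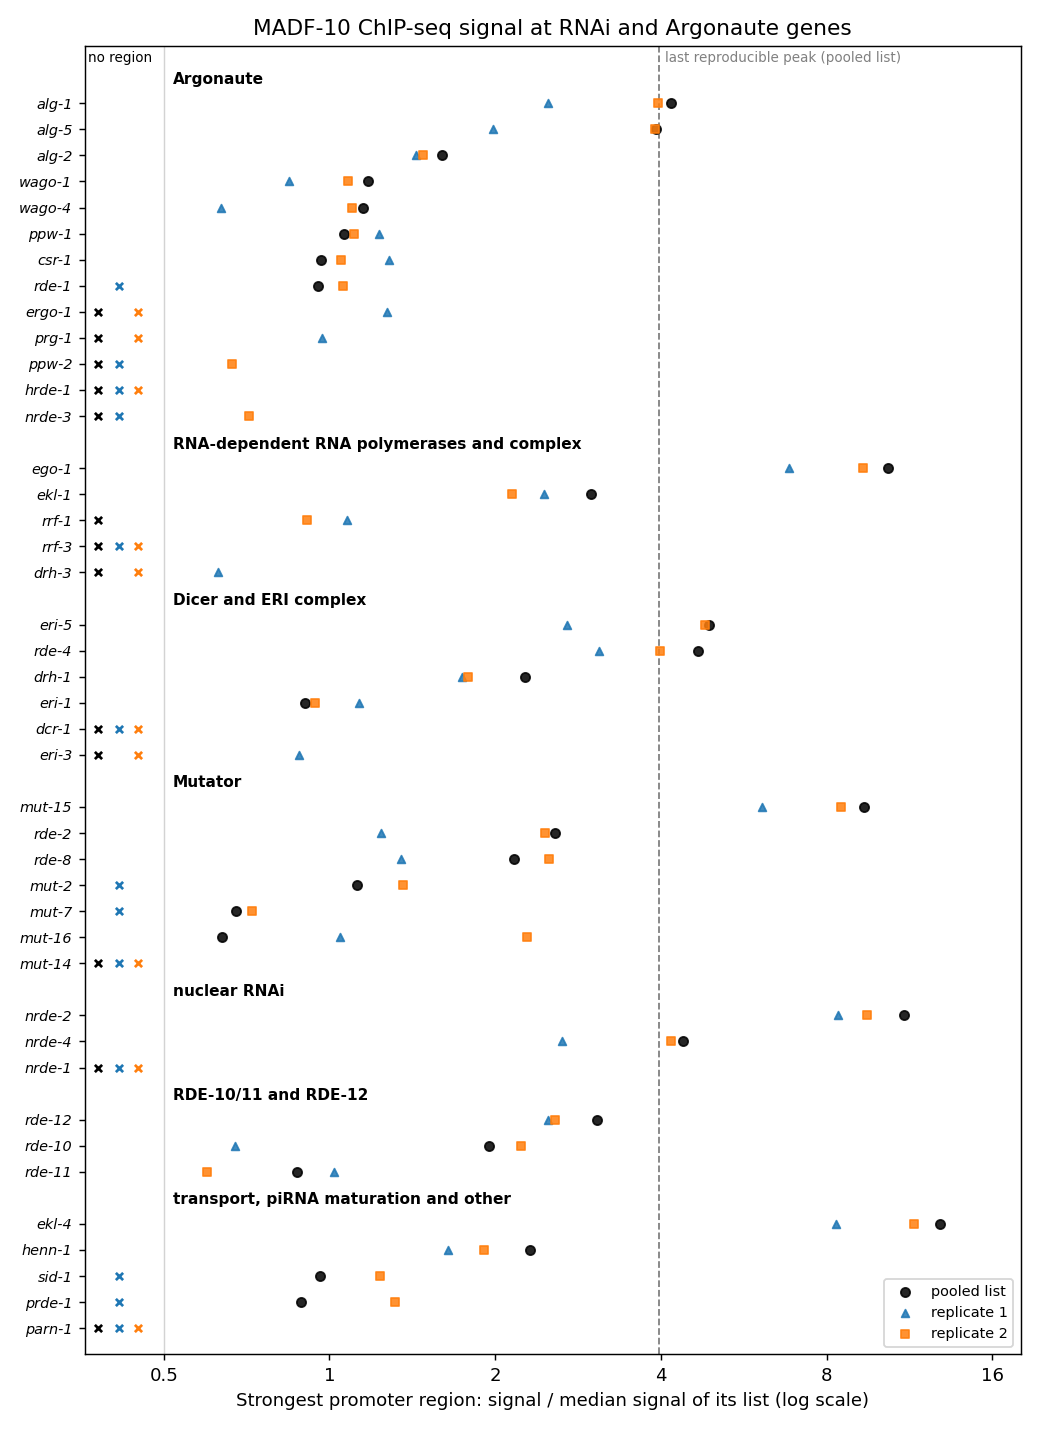
The signal of each RNAi gene's strongest promoter region in the pooled list is plotted as a multiple of its list's median (log scale), by role, with the same value from each replicate's list. Circles are the pooled list, triangles replicate 1 and squares replicate 2, crosses at the left mark genes with no promoter region in a list, and 8 circles lie above the end of the reproducible list at 3.97 times the median.

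Any pooled region, however weak, was present at 29 of the 42 genes (69.0%), against 39.4% of all protein-coding genes. Among the 29, the signal ran from 0.638 to 12.8 times the list's median, with a median of 2.16, while the 7870 genes with a pooled region ran from 0.546 to 737 with a median of 1.54. The strongest RNAi gene, ekl-4, ranked 167 of 30000. The window sets which genes count as having none. With a window from 500 bp upstream to 200 bp downstream, 25 genes had a pooled region. With one from 2000 bp upstream to 500 bp downstream, 30 genes had one. The shares of all genes with any pooled region in these windows are not given here. Of the 21 genes with a pooled region that was not reproducible, 8 lay below the list's median signal. The matching share of all protein-coding genes is not given here.

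Argonautes are the proteins that hold the small RNA, and 1 of the 13 in the set, alg-1, had a reproducible peak (7.69%). alg-1 (WBGene00000105, X:13949110-13956261, plus strand) encodes the main microRNA Argonaute of the worm. Its peak at X:13950694-13951113 had a signal of 97.2 (pooled, rank 1716), with 27.0 (replicate 1, rank 2530) and 70.8 (replicate 2, rank 1631). Expressed over each list's median, alg-1 reached 2.49 in replicate 1 and 3.95 in replicate 2, a mean of 3.22 ± 1.03 (SD, n = 2). The summit lay 358 bp upstream of an internal transcript start and 1794 bp downstream of the outermost one, within an annotated 5′ UTR of alg-1 itself. With the outermost start alone, alg-1 was not counted and no Argonaute had a reproducible peak.

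alg-5, a microRNA Argonaute expressed in the germ line, came next and lay just outside the list, with a pooled signal of 91.1 at rank 1909. In replicate 1 it had 21.4 (rank 3802) and in replicate 2 it had 69.9 (rank 1673), so only the second replicate placed it among its 1869 strongest regions. The alg-5 summit lay 837 bp upstream of its start and much closer to the histone genes his-68, at 167 bp, and his-67, at 202 bp. alg-2, the close paralog of alg-1, had 37.3 (pooled, rank 7251), with 15.5 (replicate 1, rank 6747) and 26.5 (replicate 2, rank 7893), at 1.60, 1.44 and 1.48 times the list medians and below the reproducible list. Within the promoter window, the 3 microRNA Argonautes thus held the 3 highest signals among the Argonautes, in the order alg-1, alg-5, alg-2. The alg-2 summit lay in an intron of alg-2, 593 bp upstream of an internal start and 355 bp downstream of the outermost one. With outermost starts alone, that summit was outside the window, and the strongest alg-1 region stood at 0.553 times the pooled median. The order thus depends on which starts are counted. The gap between alg-1 and alg-5 is small beside the difference between the replicates of either gene.

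The other 10 Argonautes had no reproducible peak. wago-1 (27.3) and wago-4 (26.7), which carry secondary siRNAs in the germ line, were just above the pooled median of 23.3, as was ppw-1 (24.7), needed for RNAi in the germ line. csr-1 (22.4), whose siRNAs match genes expressed in the germ line, and rde-1 (22.2), the primary Argonaute of RNAi from outside double-stranded RNA, were just below it. These 5 genes ranked between 11727 and 16027 and do not differ beyond the spread between replicates, whose own order differed: csr-1 ranked 8366 in replicate 1, where wago-4 ranked 25170 and rde-1 had no region. prg-1, the Piwi protein, and ergo-1, which acts with siRNAs of oocytes and embryos, had a promoter region in replicate 1 alone, with signals of 10.5 and 13.8. Past the window, prg-1 had a stronger region in all 3 lists, with 49.2 (pooled, rank 4743) at 860 bp downstream of its start, 17.1 (replicate 1) at 897 bp and 28.9 (replicate 2) at 866 bp. ppw-2 and nrde-3, the nuclear Argonaute of somatic cells, had one in replicate 2 alone, with 11.9 and 12.8. hrde-1, the nuclear Argonaute of the germ line and of inherited silencing, had no region in the promoter window in any of the 3 lists, and a weak pooled one 864 bp downstream of its start (15.1, rank 25443).

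RNA-dependent RNA polymerases and their complex had a reproducible peak at 1 of 5 genes (20.0%). ego-1 (WBGene00001214, I:7650341-7656338, minus strand) encodes a germline polymerase that makes secondary siRNAs. Its peak at I:7656676-7656953 had a signal of 240.3 (pooled, rank 279), with 74.0 (replicate 1, rank 335) and 166 (replicate 2, rank 273). The signal of ego-1 was 6.84 and 9.30 times the median of the replicates' lists, or 8.07 ± 1.74 (SD, n = 2). The summit lay 448 bp upstream of ego-1 in the 640 bp that part it from F26A3.4, a gene on the same strand, and no other gene's promoter window held it.

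rrf-1, a second polymerase for secondary siRNAs, is the neighbour of ego-1, with 563 bp between them. It had no promoter region in the pooled list and weak ones in the replicates, with a signal of 11.6 in replicate 1 (rank 11480) and 16.3 in replicate 2 (rank 17089). Of this pair of neighbouring polymerase genes, only ego-1 had a reproducible peak in its promoter window. rrf-3, the polymerase of the endogenous siRNAs that pass through Dicer, had no promoter region in any list. Of the partners, ekl-1, a Tudor protein, had 69.6 (pooled, rank 2870), with 26.6 (replicate 1, rank 2593) and 38.5 (replicate 2, rank 4327), below the end of the reproducible list. Its summit was shared with prpf-4, whose start was closer. drh-3, a Dicer-related helicase, had a region in replicate 1 alone, with a signal of 6.80.

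Dicer and the ERI complex, which makes endogenous siRNAs, had reproducible peaks at 2 of 6 genes (33.3%). eri-5 (WBGene00021419, IV:2390821-2396263, plus strand) encodes a Tudor protein that ties the polymerase RRF-3 to Dicer. Its peak at IV:2390223-2390642 had a signal of 114 (pooled, rank 1321), with 29.2 (replicate 1, rank 2198) and 85.9 (replicate 2, rank 1146). The eri-5 multiples of the list medians were 2.70 and 4.80, a mean of 3.75 ± 1.49 (SD, n = 2), with replicate 2 the higher. The eri-5 summit lay 388 bp upstream of the start and in no other gene's window. A stronger region, with a signal of 345 and rank 129, lay 1710 bp upstream of eri-5 and 334 bp upstream of the neighbouring gene trap-3.

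rde-4 (WBGene00004326, III:10217302-10218646, minus strand) encodes the double-stranded RNA binding partner of Dicer. Its peak at III:10218585-10219004 had a signal of 109 (pooled, rank 1443), with 33.4 (replicate 1, rank 1767) and 71.3 (replicate 2, rank 1608). Over the list medians, rde-4 reached 3.09 and 3.99, or 3.54 ± 0.635 (SD, n = 2). It was the one of the 4 weaker peaks that stood among the 1869 strongest regions of both replicates. drh-1, a helicase of antiviral RNAi, followed with 52.8 (rank 4280), and the exonuclease gene eri-1 with 21.0 (rank 17302). eri-3 had a region in replicate 1 alone, with 9.53. dcr-1, which encodes Dicer itself, had none in its promoter window in any list.

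The Mutator genes, whose products amplify siRNAs in foci at the nuclear rim, had 1 reproducible peak among 7 (14.3%). mut-15 (WBGene00011323, V:15002543-15005067, plus strand) encodes a Mutator complex protein. Its peak at V:15002201-15002402 had a signal of 218 (pooled, rank 341), with 66.0 (replicate 1, rank 452) and 152 (replicate 2, rank 335). The mut-15 multiples of the list medians were 6.10 and 8.51, a mean of 7.30 ± 1.71 (SD, n = 2). The summit was nearer to fib-1, the gene of the nucleolar protein fibrillarin on the opposite strand, at 78 bp, than to mut-15, at 242 bp. A weaker pooled region, with a signal of 61.7 at rank 3419, lay closer to mut-15, just upstream of its start. It was below the reproducible list, so with each peak given to the nearest start alone, no Mutator gene was counted.

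rde-2, whose product binds MUT-7, had 59.7 (pooled, rank 3597), with 44.1 (replicate 2, rank 3450) at the same place, and its summit was nearer to pfd-6. At that place replicate 1 had 9.29 (rank 16597), and its strongest rde-2 region, with 13.4 (rank 8866), lay 909 bp from that of replicate 2. The endonuclease gene rde-8 had 50.3 (rank 4606). The nucleotidyltransferase gene mut-2 had 26.1, the exonuclease domain gene mut-7 had 15.7, and the helicase gene mut-14 had no promoter region in any list. mut-16, the scaffold of the foci, had the weakest pooled region of the set, with 14.8 at rank 25903. In replicate 2 the mut-16 region was at rank 3902 with 40.9, or 2.29 times that list's median, and in replicate 1 at rank 12091 with 11.3, or 1.04 times. The mut-16 summits of the replicates lay 36 bp apart, at another place than the pooled one. As a ratio, the multiples of mut-16 differed more between the replicates than those of any of the 8 genes with a reproducible peak.

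Nuclear RNAi factors had the highest share of the roles, with 2 of 3 genes (66.7%), though 3 genes are few. With their Argonautes hrde-1 and nrde-3 counted in, the share was 2 of 5 (40.0%). nrde-2 (WBGene00011333, II:10242596-10247638, minus strand) encodes a protein that silences nascent transcripts with the nuclear Argonautes. Its peak at II:10248442-10248716 had a signal of 258 (pooled, rank 235), with 91.0 (replicate 1, rank 213) and 169.8 (replicate 2, rank 264). The nrde-2 multiples of 8.40 and 9.49, with a mean of 8.94 ± 0.767 (SD, n = 2), were the closest to each other of the 4 strong peaks. The summit lay 924 bp upstream of nrde-2 and 429 bp upstream of atad-3, a gene of a mitochondrial ATPase on the opposite strand. A weaker pooled region, with a signal of 43.9 at rank 5672, lay 112 bp upstream of nrde-2. With a window of 500 bp in place of 1000 bp, nrde-2 was not counted.

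nrde-4 (WBGene00001584, IV:7646320-7654262, minus strand) acts in the same silencing pathway. Its peak at IV:7654357-7654776 had a signal of 102 (pooled, rank 1600), with 28.7 (replicate 1, rank 2275) and 74.6 (replicate 2, rank 1492). Over the list medians, nrde-4 reached 2.65 and 4.17, or 3.41 ± 1.07 (SD, n = 2). The summit lay 305 bp upstream of nrde-4, and the nearest gene on that side, C08G9.1 on the opposite strand, is 4501 bp away. nrde-1, the third of these factors, had no promoter region in any list.

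RDE-10 and RDE-11, which act together in amplifying siRNAs, and the helicase RDE-12 had no reproducible peak at their 3 genes. rde-12 had 71.1 (pooled, rank 2785), with 27.0 (replicate 1, rank 2528) and 46.0 (replicate 2, rank 3241). rde-10 had 45.3 in the pooled list (rank 5380), and its replicates differed widely, with rank 23376 in replicate 1 and 4078 in replicate 2. rde-11 was weak in all 3 lists, at 20.3 in the pooled one.

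The remaining 5 genes act in transport, piRNA maturation and transcription, and 1 of them, ekl-4, had the strongest peak of the whole set (20.0%). ekl-4 (WBGene00013676, I:14469500-14476894, plus strand) encodes a relative of the chromatin protein DMAP1, whose human form is part of a histone acetyltransferase complex. Its peak at I:14469226-14469476 had a signal of 299 (pooled, rank 167), with 90.2 (replicate 1, rank 217) and 206 (replicate 2, rank 168). The ekl-4 multiples were 8.34 and 11.5, with a mean of 9.94 ± 2.26 (SD, n = 2). Its summit lay 149 bp upstream of ekl-4 and 248 bp upstream of rps-20, a gene of a ribosomal protein on the opposite strand.

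henn-1, whose product methylates the ends of small RNAs, had 53.7 (pooled, rank 4169), with 17.8 (replicate 1, rank 5260) at the same place, an intron of fbxl-1 upstream of henn-1. Within the window, the strongest henn-1 region of replicate 2, with 34.1 (rank 5239), was another one, 128 bp downstream of the start. Replicate 2 also had 2 regions to either side of the pooled summit. The stronger, with 39.6 (rank 4131), lay just past the upstream edge of the window, and the other, with 28.5 (rank 6995), lay inside it. sid-1, the channel by which double-stranded RNA enters cells, had 22.4, and prde-1, needed to transcribe piRNA precursors, had 20.7. parn-1, which trims piRNAs, had no region in the promoter window in any list. A region lay just past that window, 337 bp downstream of the parn-1 start, with 34.8 (pooled, rank 8022) and 28.6 (replicate 2, rank 6963).

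**Figure D2:**
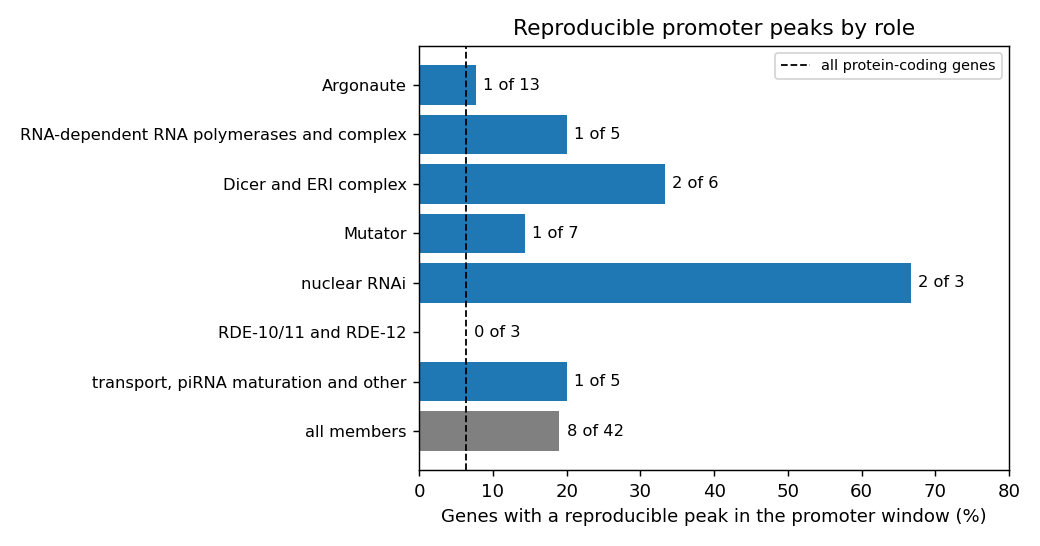
The bars give the percent of genes of each role with a reproducible peak, starting at 0, with the counts printed beside them. The grey bar is the whole set of 42 genes, and the dashed line marks 6.38% of all protein-coding genes; nuclear RNAi factors stand at 2 of 3 genes and the Argonautes at 1 of 13.

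Set side by side, the Argonautes stood near the share of all genes and had a median pooled signal of 1.16 times the list's median over the 8 with a region, below the 1.54 of all genes. The polymerase complex stood at 6.66 over 2 genes, the Mutator genes at 1.64 over 6 and the nuclear RNAi factors at 7.73 over 2. These medians rest on so few genes that the roles were not tested against each other. In each of these 3 groups, a gene with a strong peak stood beside one with no promoter region in any list: ego-1 beside rrf-3, mut-15 beside mut-14, and nrde-2 beside nrde-1.

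The 4 strong peaks (ekl-4, nrde-2, ego-1 and mut-15) were among the first 500 of all 3 lists, and the 4 others were weaker. Among the 1869 strongest regions of replicate 1 were 5 of the 42 genes (11.9%), against 6.05% of all genes, namely ego-1, rde-4, mut-15, nrde-2 and ekl-4. In replicate 2 there were 9 (21.4%), against 6.40%, namely the 8 and alg-5. Taking as many pooled regions as the reproducible list on build ce10 holds, 2878, gave 11 genes (26.2%), against 9.51%, with alg-5, ekl-1 and rde-12 added. alg-1, eri-5 and nrde-4 were thus among the strongest regions of replicate 2 and not of replicate 1.

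**Figure D3:**
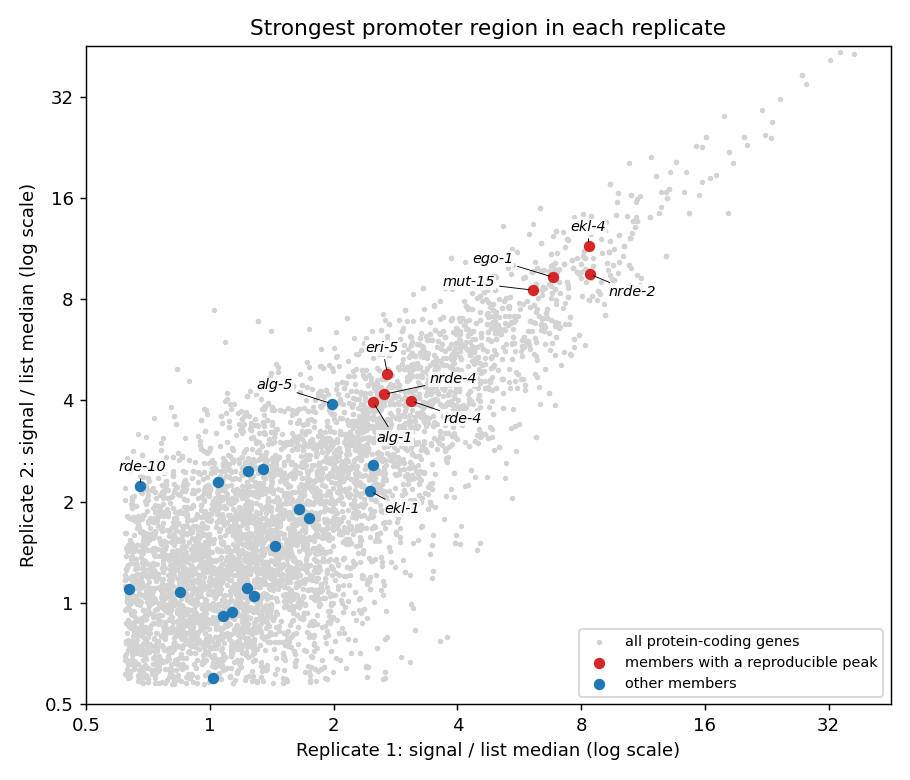
Each gene's strongest promoter region is plotted as a multiple of the list's median in replicate 1 and replicate 2 (both log scales). Grey points are all protein-coding genes with a region in both, red points the 8 RNAi genes with a reproducible peak and blue points the others. All 8 have a higher multiple in replicate 2, as do 11 of the 17 others and madf-10 (389 and 544, beyond the axes). How many of all genes with a reproducible peak do so was not counted, so this is not shown to be particular to the 8.

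Of the 42 genes, 25 had a region in both replicates, and their log2 multiples correlated with a Pearson's r of 0.880 and a Spearman's rho of 0.845 across genes. Over the 5844 protein-coding genes with both, the same values were 0.819 and 0.728. Genes are not independent replicates, and the points share their libraries, so these values are descriptions. The summits of the 8 genes with a reproducible peak lay 1 to 52 bp apart in the replicates, with nrde-4 the closest and eri-5 the farthest. The reproducible list was itself thresholded on agreement between the replicates, so this closeness is no separate evidence of it. Of the other 17 genes with both, 10 had their strongest regions over 100 bp apart, up to 1524 bp for eri-1. Only the strongest region in the window is compared here. A weaker region of one replicate can lie at the place of the other's strongest, as at rde-2. No promoter region was found in replicate 1 for 13 of the 42 genes and in replicate 2 for 10. The matching shares of all protein-coding genes are not given here, so these counts are not read as a trait of the set.

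Of the 8 peaks, 4 lay in the promoter windows of both genes of a divergent pair, 3 of these pairs with starts at most 397 bp apart. Divergent pairs can share regulatory DNA, which was not tested here, and the summit does not say which of the genes it serves. rde-4 and cox-14, a gene for a factor of cytochrome oxidase assembly, start 296 bp apart with the summit in the middle, 149 bp from rde-4 and 147 bp from cox-14. mut-15 and fib-1 start 320 bp apart, ekl-4 and rps-20 start 397 bp apart, and nrde-2 and atad-3 start 1353 bp apart. The other 4 peaks, at ego-1, eri-5, nrde-4 and alg-1, were in the window of no second gene. Among all 1015 reproducible peaks in promoter windows, 307 (30.2%) were shared by more than 1 gene. This share counts each peak once, while the 1015 peaks make 1342 pairs of a gene and a peak. A set chosen by gene meets shared peaks more often than that share, so the 2 shares are not alike. With each peak given to the nearest start alone, 5 of the 42 genes kept theirs, and mut-15, nrde-2 and rde-4 lost it.

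**Figure D4:**
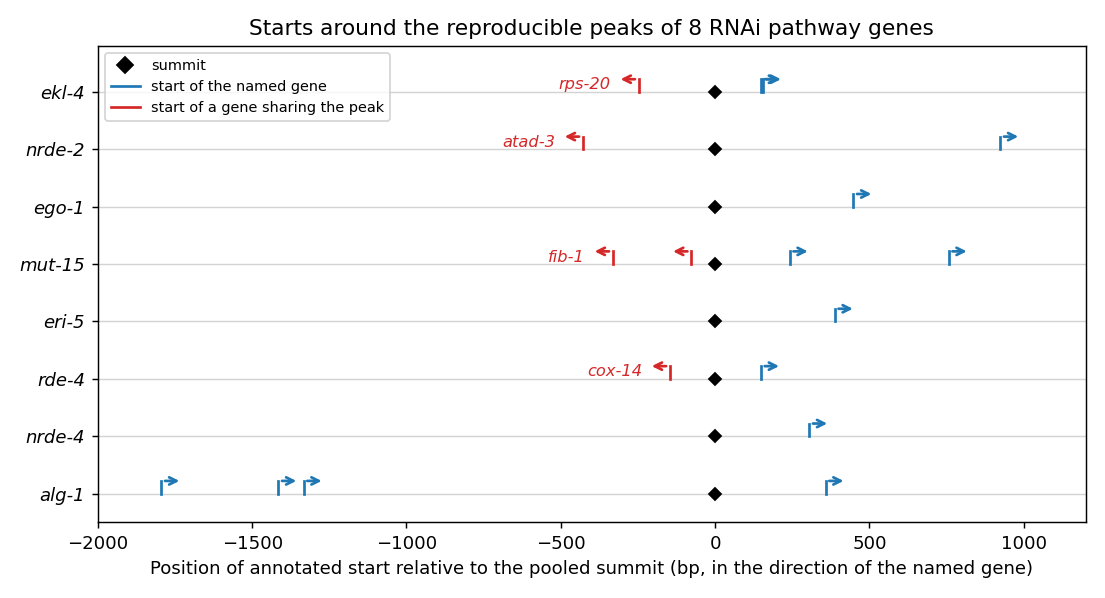
Annotated starts (arrows) are drawn around the pooled summit (diamond at 0) of the 8 RNAi genes, in bp along the direction of the named gene. The nearest start of the named gene lies downstream of each summit, at 149 to 924 bp, and a divergent neighbour shares the peak at ekl-4, nrde-2, mut-15 and rde-4.

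All 8 summits lay upstream of the nearest start of their gene, at a median of 331.5 bp, against a median of 267 bp upstream for all 1342 pairs of a gene and a reproducible peak. Annotated starts of worm genes are often sites of trans-splicing, so the true start of transcription can lie upstream of them. The summits of 7 genes lay between genes, with alg-1 the exception, and no annotated non-coding gene was within 200 bp of any of the 8. The 42 genes are spread over all 6 chromosomes, and each chromosome held at least 1 of the 8. Chromosome I held 14 of the 42 and 2 of the 8, while chromosome X held 2 and 1. Of all protein-coding genes, 8.13% on chromosome I and 6.08% on chromosome X had a reproducible peak. The members are too few to compare the chromosomes.

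In the 50 bp to either side of the summit, the share of G and C bases in the 8 peaks had a median of 45.5%, from 26.7% at eri-5 to 54.5% at mut-15. The median was 48.5% over the 1015 promoter peaks and 38.6% over all pooled regions. eri-5, ego-1 (36.6%) and rde-4 (40.6%) were the lowest, and nrde-2 (49.5%), nrde-4 (48.5%) and alg-1 (48.5%) were close to the median of the promoter peaks. In the same window 6 sequences of 6 bases were searched on both strands. The sequence GAGACG was in the window of alg-1 alone, and in 17.9% of the promoter peaks and 5.89% of all pooled regions. The sequence GAGAGA, which shares its first 4 letters with it, was also in alg-1 alone, and in 23.1% and 10.1%. The sequence CTGCGT was in alg-1 and ekl-4, and in 16.6% and 4.57%. None of the 8 windows held CACGTG (in 4.04% of the promoter peaks), none held CGCGAA (in 7.09%) and none held TGATAA (in 5.71%). Thus 6 of the 8 windows, those of all but alg-1 and ekl-4, held none of the sequences searched. The share of all promoter peaks that held none of them was not counted, so this is not shown to be particular to the RNAi genes.

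Of the 81 other names of the small RNA pathways that were looked up, 73 were found, and 9 of these genes had a reproducible peak (12.3%), beside the 6.38% of all genes. Genes of microRNA processing and silencing, which include cofactors of the Argonautes and regulators of microRNA maturation and turnover, made up 5 of the 9, out of 11 genes in that group. A pooled region was present at 10 of the 11, beside 39.4% of all genes. nhl-2, a cofactor of microRNA silencing, had 446 in the pooled list (rank 85), and its summit was closer to tag-340. ain-1, the GW182 protein that binds microRNA Argonautes, had 431 (rank 92), with ranks of 100 in replicate 1 and 91 in replicate 2, and shared its summit with no other gene. These 2 genes were above every one of the 42. cgh-1, a helicase of RNA granules, had 231 (rank 304), vig-1, a component of the RNA-induced silencing complex, had 193 (rank 437), and lin-28, which blocks maturation of the let-7 microRNA, had 132 (rank 1014). The summits of ain-1, nhl-2 and cgh-1 lay at -898, -832 and -767 bp from their starts (negative is upstream), so a 500 bp window would not hold them. That of nhl-2 was in an exon of the non-coding gene F26F4.14. The lin-28 summit lay in an intron, just upstream of an internal start and 855 bp downstream of the outermost one.

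Chromatin factors of heritable silencing had 2 peaks among 9 genes, at jmjd-1.2 (242, rank 273) and mrg-1 (169.9, rank 602). piRNA factors had 1 among 14, tofu-1 (174, rank 566), and the other polymerase and RNAi factors had 1 among 18, simr-1 (130.5, rank 1032), shares near the 6.38% of all genes. All 4 of these summits were shared with a neighbour whose start was closer. The 7 other Argonautes and the 14 factors of perinuclear germ granules had no reproducible peak, with a pooled region at 3 and 6 of them, shares near the 39.4% of all genes.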

How the data were processed

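ChIP-seq regions of 2 biological replicates of 1 group were used, with groups and replicate numbers taken from the labels. Per the deposited readme files, regions were called in each replicate and in both pooled against a control, and the reproducible list was thresholded by the irreproducible discovery rate (IDR). The authors' signal value (column 7 of the deposited lists) was used only to rank and describe regions within a list. The aligner, caller, IDR threshold and depth are unknown here (not given in the sources used), and the control was not analysed here. The reproducible list was tested to be the 1869 strongest pooled regions.

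Summits were joined to protein-coding transcript starts of Ensembl release 115 (WBcel235, the assembly of ce11), from 1000 bp upstream to 200 bp downstream, and each gene took its strongest region. Python 3.11.15, numpy 2.4.6, pandas 2.3.3 and matplotlib 3.10.9 were used, and the joining step was tested on simulated data. All coordinates count from 1.

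The 42 genes, the roles, the 73 other pathway genes and the sequences searched were chosen with earlier results of these data known, so no test was run. Full values were given for genes with a reproducible peak, and then for the 5 with the strongest pooled region below that list and the strongest of each role. Alternatives changed the window, list length, sharing rule and replicate.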

Additional observations from a re-analysis of the deposited data

How the results depend on the processing

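The count of 8 genes stayed between 7 and 11 under both other windows, with overlap by 1 bp, with the longer list and with outermost starts, the last chosen after seeing the data. All genes stood at 4.95% with the 500 bp window, 6.83% with overlap by 1 bp, 9.51% in the longer list and 5.89% with outermost starts. The count was 4 in the stronger 50% of the reproducible list, where all genes stood at 3.33%, and 5 with nearest starts only (all genes 4.81%). With the window of 2000 and 500 bp it was 8, where all genes stood at 8.54%. From single replicates it was 5 in replicate 1 (all genes 6.05%) and 9 in replicate 2 (all genes 6.40%). Argonautes numbered 0 in the stronger 50% and with outermost starts, 2 in the longer list, and 0 to 2 in single replicates. Nuclear RNAi genes numbered 1 with the 500 bp window, the stronger 50% and nearest starts, and 1 to 2 in single replicates. Polymerase complex genes numbered 2 in the longer list, and Mutator genes 0 with nearest starts. Why the counts moved was not tested, other than that shorter lists hold fewer regions. No paired analysis was possible because there is only 1 group. Depth is unknown, so no region at a gene means that none was detected, not that it was unbound.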
